A study of Mus musculus with 32 samples.

Results

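The day 3 comparison covers 4 of the 32 libraries of the study, 2 from 4-OHT-treated Trex1 FL/FL and 2 from 4-OHT-treated Trex1 WT/FL bone marrow-derived macrophages (BMDMs), chosen by genotype, treatment and day. Bone marrow cells of mice of both genotypes, all carrying R26 CreERT2, a Cre recombinase made in every cell type and switched on by 4-hydroxytamoxifen (4-OHT), were grown into macrophages with L929 supernatant and either received 4-OHT at 2 µg/ml during 22 h or stayed untreated. Libraries were made from RNA of days 1 to 4 after the exposure, with 2 libraries for each of 16 groups, and the 4 untreated libraries of day 3 serve as a second control. The control genotype carries 1 floxed allele and so also recombines, losing 1 of its copies under 4-OHT. The labels name no animal, culture or batch for any library, so the p-values measure the spread between these libraries, which may be technical, and the replicate numbers used here only name the libraries. The 4 libraries held 37328968 to 63760884 estimated counts.

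TREX1 is the main exonuclease that degrades DNA in the cytosol. Without it, self-DNA activates the sensor cGAS, whose product cGAMP switches on STING and, through IRF3, type I interferon and the interferon-stimulated genes. STING signalling is also known to touch the ER, translation and cell metabolism, and interferon is known to rewire the metabolism of macrophages.

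All 10 macrophage markers checked were detected, with 4787 and 4607 CPM against 4865 and 4592 CPM for Adgre1, an adhesion receptor of macrophages. Their summed level was 39964 and 39580 CPM in the Trex1 FL/FL libraries against 48742 and 46368 CPM in the Trex1 WT/FL libraries, which do not overlap, with Lyz2 and Csf1r lower. Markers of neutrophils and their precursors summed to 6.17 and 8.79 CPM against 23.4 and 7.73 CPM, with Ly6g at 0 in all 4 libraries, so Trex1 WT/FL replicate 1 held more of them than the other 3 libraries. Dendritic cell markers summed to 1.78 and 2.63 CPM against 3.10 and 2.68 CPM, and the lists of T and NK, B, mast, erythroid and stromal cells stayed at or below 6.26 CPM in each of these 4 libraries. In the untreated libraries of day 3, neutrophil markers summed to 6.73 and 8.24 CPM in Trex1 FL/FL and 17.9 and 7.07 CPM in Trex1 WT/FL cells. The excess in Trex1 WT/FL replicate 1 was thus seen with and without 4-OHT. Whether these replicate 1 libraries share a mouse or culture was not tested, nor was the part of these differences in the results. In bulk RNA, fewer cells of a type and less RNA per cell cannot be told apart.

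Levels are given as CPM, the counts of a gene in a library scaled to 1000000 counts, first for the 2 Trex1 FL/FL and then for the 2 Trex1 WT/FL libraries of day 3, both with 4-OHT. Changes are log2 fold changes of Trex1 FL/FL over Trex1 WT/FL ± standard error, and adjusted p-values come from edgeR's quasi-likelihood test over all 15257 genes tested.

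Trex1 itself (chromosome 9, 108887001 to 108888802 of GRCm39, minus strand) checks the labels. It held 0 counts in both Trex1 FL/FL libraries against 3622 and 3556 counts in the Trex1 WT/FL libraries, at least 1067-fold lower when 3 counts per library are taken as the floor (adjusted p = 1.84e-18). In Trex1 WT/FL cells, 4-OHT left 54.9% of the untreated level (adjusted p = 1.44e-05). Every 31-base word of Trex1 also occurs in transcripts annotated to Atrip, whose annotated span contains Trex1, and Atrip itself stood at 11.7 and 11.8 CPM against 12.4 and 12.9 CPM (-0.11 ± 0.10, adjusted p = 0.472).

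A neighbouring gene was also strongly lowered. Shisa5, which encodes the ER membrane protein Scotin, stood at 12.5 and 16.7 CPM against 297 and 289.6 CPM (-4.31 ± 0.10, adjusted p = 2.01e-20), or 5.04% of the control level. It lies on the opposite strand (chromosome 9, 108867633 to 108887029), and its annotated end overlaps that of Trex1 by 29 bases. The untreated libraries of day 3 held 513 and 491 CPM in untreated Trex1 FL/FL and 520.3 and 506 CPM in untreated Trex1 WT/FL cells, without a difference past the threshold between genotypes. Shisa5 in 4-OHT-treated Trex1 WT/FL cells was at 57.1% of the untreated level (adjusted p = 2.32e-06), a reduction close in size to that of Trex1 in the same libraries. At day 1 the genotypes differed by -0.79, at day 2 by -3.04 and at day 4 by -3.91 (log2 fold changes), each past the test. Most annotated neighbours showed no such difference. Ccdc51 stood at 5.67 and 5.88 CPM against 6.13 and 6.12 CPM (-0.083 ± 0.16, adjusted p = 0.805). Tma7 stood at 80.0 and 73.6 CPM against 83.0 and 76.4 CPM (-0.055 ± 0.079, adjusted p = 0.707) and did not pass the test either. Pfkfb4, 24154 bases away, was lower by a smaller amount (-0.65 ± 0.073, adjusted p = 2.11e-07). The extent of the deletion was not measured here, and its part in the level of Shisa5 was not tested.

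**Figure D1:**
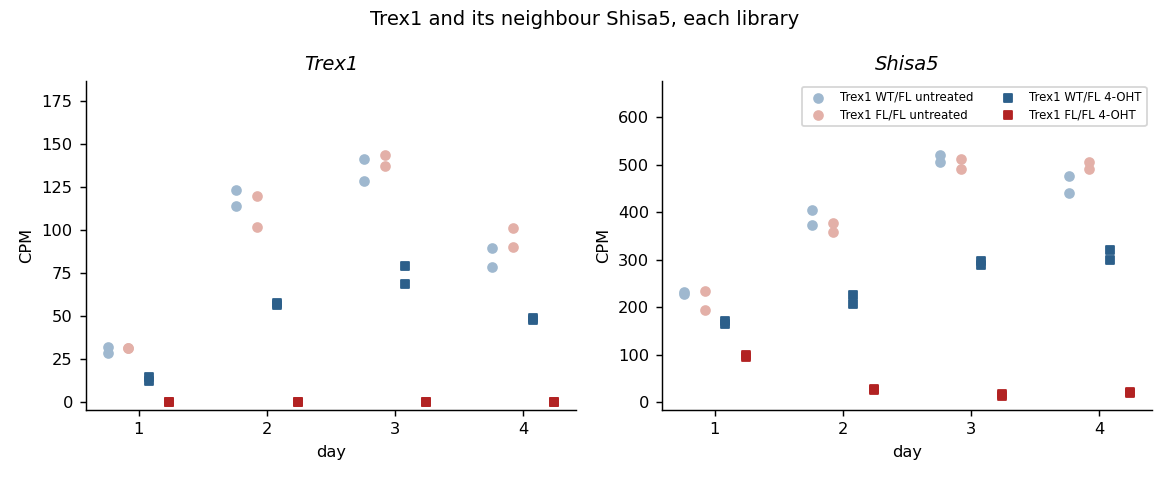
Levels of Trex1 and Shisa5 in CPM (linear axes) on days 1 to 4, with 1 point for each of the 32 libraries. On day 3 both genes are at their lowest in the 4-OHT-treated Trex1 FL/FL libraries, with Trex1 at 0 and Shisa5 at 12.5 and 16.7 CPM, and the 4-OHT-treated Trex1 WT/FL libraries lie between these and the untreated libraries.

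Of the 15257 genes tested, 74 were higher (0.485%) and 59 lower (0.387%) in Trex1 FL/FL cells when an adjusted p under 0.01 was required together with a log2 fold change beyond 1.5 in size, the call used here. At an adjusted p below 0.05 and any fold, 1511 were higher (9.90%) and 1390 lower (9.11%), and the median change of all genes was -0.0073. The libraries of the 2 groups did not overlap for any of the 133 genes called, beside 57.4% of all genes tested. A lack of overlap, where it is given for a gene below, thus adds little to the test. The same contrast in untreated cells of day 3 gave 0 genes at an adjusted p below 0.05, with 468 at an unadjusted p below 0.05, by edgeR. Tested as the difference between the genotype effects with and without 4-OHT, 748 genes were more positive (4.90%) and 616 more negative (4.04%) at an adjusted p below 0.05 in a test that uses the same 4-OHT libraries again. Many of the lowered genes were weakly expressed. Of the 59, 16 reached 5 CPM in Trex1 WT/FL cells and 20 stayed below 1 CPM in both genotypes, whereas 46 of the 74 raised genes reached 5 CPM in Trex1 FL/FL cells. Calls of low genes rest on few counts. Fitting the 4 libraries alone called 73 genes higher and 36 lower. Many of the lowered calls were lost with any 1 of the 4 libraries left out. This was not particular to Trex1 WT/FL replicate 1, the library with the most neutrophil marker RNA.

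**Figure D2:**
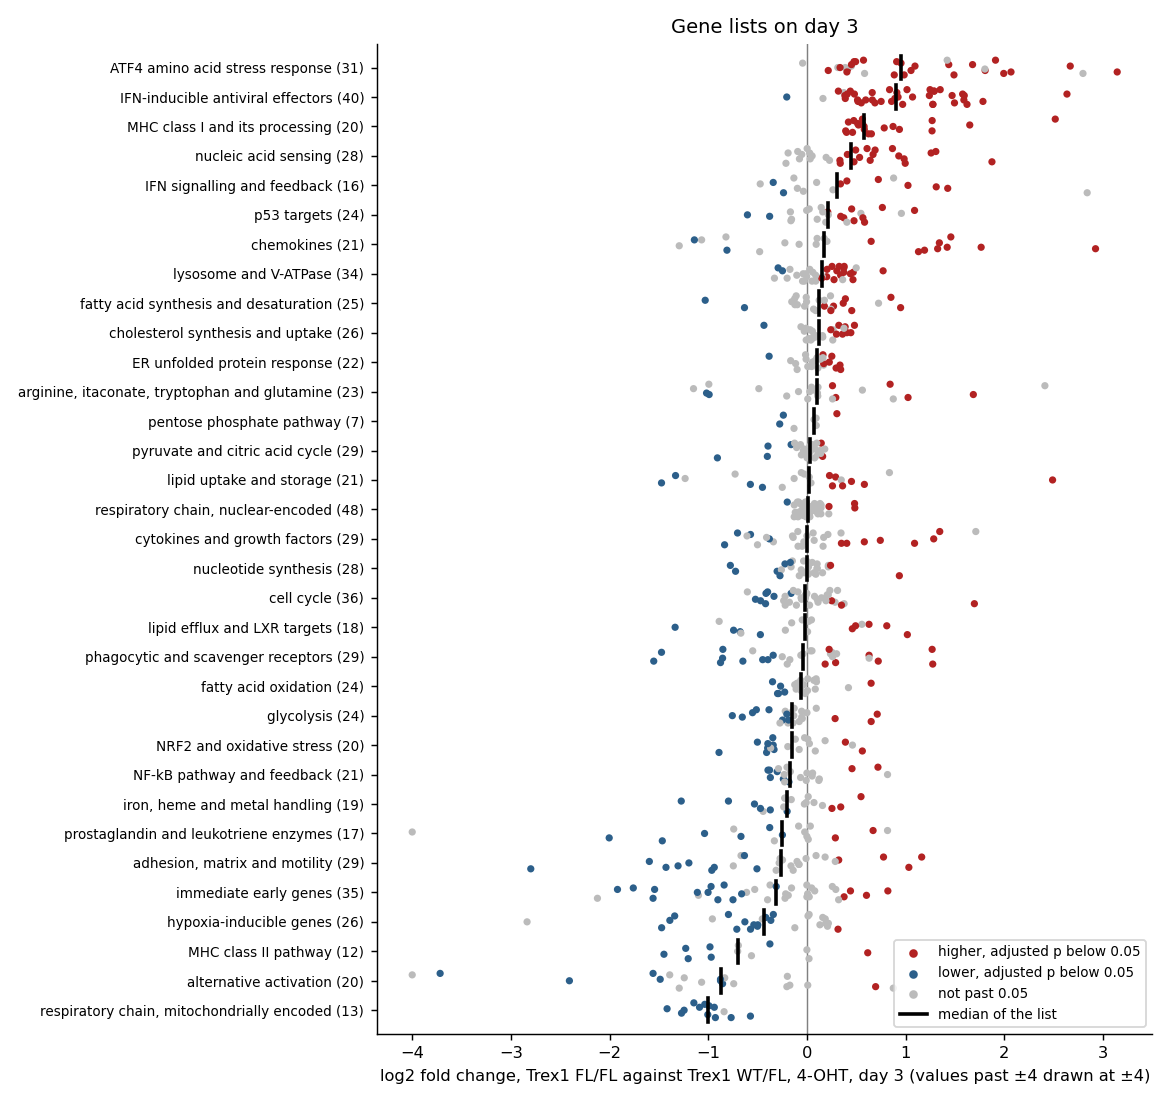
Log2 fold change (x axis) of each tested member (points) of 33 gene lists (rows), ordered by the list's median, which is the black bar, with values past 4 in size drawn at 4. The list of mitochondrially encoded respiratory chain genes has a median of -1.0 and the ATF4 amino acid stress list one of 0.95, beside 0.90 for the interferon-inducible effectors. The order of these last 2 turned without Trex1 WT/FL replicate 2 (0.945 against 0.987) and without Trex1 FL/FL replicate 2 (0.922 against 0.939).

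The amino acid stress response and the interferon-inducible genes had the highest list medians. In the stress response, kinases that sense stress phosphorylate eIF2α, most translation slows, and the transcription factor ATF4 is made in larger amounts and turns on genes for amino acid uptake, amino acid synthesis and tRNA charging. Of the 31 stress response members tested, 23 were higher and 0 lower at an adjusted p below 0.05, and 7 passed the stricter call. With any 1 of the 4 libraries left out, 22 to 24 were higher and 0 lower. The list's median was 0.95, beside -0.0073 for all genes, and in untreated cells it was 0.018. With the untreated cells subtracted, 21 members were more positive at an adjusted p below 0.05. That test uses the same 4-OHT libraries again and is no separate support.

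Regulators of the response rose. Trib3, a pseudokinase induced by ATF4, stood at 30.1 and 27.9 CPM against 3.35 and 3.19 CPM (3.14 ± 0.22, adjusted p = 9.18e-10), and all untreated libraries of day 3 were as low as the controls, with 2.53 and 1.78 CPM in untreated Trex1 FL/FL and 3.10 and 1.91 CPM in untreated Trex1 WT/FL cells. Ddit3, which encodes the stress factor CHOP, stood at 79.9 and 79.1 CPM against 20.1 and 25.5 CPM (1.81 ± 0.12, adjusted p = 2.02e-11). Atf4 mRNA itself was at 174 and 166 CPM against 87.7 and 84.3 CPM (0.99 ± 0.068, adjusted p = 3.78e-11), and the related factor Atf5 stood at 130.4 and 125 CPM against 44.9 and 49.4 CPM (1.44 ± 0.15, adjusted p = 1.08e-06). In each of these genes the Trex1 FL/FL libraries lay above the control libraries and close to each other. Chac1, which degrades glutathione, was a low gene at 2.51 and 2.19 CPM against 0.171 and 0.581 CPM (2.67 ± 0.36, adjusted p = 3.24e-06).

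Several enzymes and carriers for amino acids rose with them. Asns, asparagine synthetase, stood at 49.1 and 46.0 CPM against 12.4 and 12.9 CPM (1.91 ± 0.10, adjusted p = 8.85e-13). Phgdh, the first enzyme of serine synthesis, stood at 26.6 and 22.3 CPM against 5.33 and 6.95 CPM (1.99 ± 0.16, adjusted p = 1.39e-08), and 39.8% of its 31-base words also occur in other annotated genes. Mthfd2, a mitochondrial one-carbon enzyme, stood at 71.6 and 79.3 CPM against 25.7 and 28.1 CPM (1.49 ± 0.093, adjusted p = 1.88e-11). These 3 enzymes were higher with no overlap between the groups. The 2 later enzymes of serine synthesis did not pass the test, with Psat1 at 5.82 and 4.38 CPM against 4.23 and 3.80 CPM (0.31 ± 0.18, adjusted p = 0.255) and Psph at 5.55 and 4.72 CPM against 4.85 and 5.70 CPM (-0.043 ± 0.13, adjusted p = 0.882). A further mitochondrial folate enzyme, Aldh1l2, was a low gene at 2.13 and 2.10 CPM against 0.419 and 0.916 CPM (1.68 ± 0.42, adjusted p = 0.00464, and 0.119 without WT/FL replicate 1). Slc7a5, the light chain of the LAT1 carrier of large neutral amino acids, stood at 16.8 and 14.9 CPM against 3.01 and 4.58 CPM (2.07 ± 0.16, adjusted p = 7.23e-09), while its partner Slc3a2 changed less, at 294 and 292 CPM against 209.8 and 206 CPM (0.49 ± 0.056, adjusted p = 2.54e-07). Slc1a4, a carrier of alanine, serine and cysteine, was called outside the list, at 3.13 and 3.01 CPM against 0.609 and 0.692 CPM (2.24 ± 0.29, adjusted p = 1.82e-06). The tRNA synthetases moved by smaller amounts. The alanyl enzyme Aars1 stood at 207 and 199 CPM against 91.8 and 98.1 CPM (1.10 ± 0.056, adjusted p = 1.61e-13). The cysteinyl enzyme Cars1 stood at 62.3 and 61.4 CPM against 32.1 and 33.7 CPM (0.91 ± 0.071, adjusted p = 4.75e-10) and the asparaginyl enzyme Nars1 at 295 and 308 CPM against 258 and 262 CPM (0.22 ± 0.052, adjusted p = 0.00350, and 0.0565 without FL/FL replicate 2). Slc7a11, the cystine carrier, stood at 16.2 and 23.7 CPM against 13.5 and 15.9 CPM and did not pass the test (0.45 ± 0.20, adjusted p = 0.142).

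**Figure D3:**
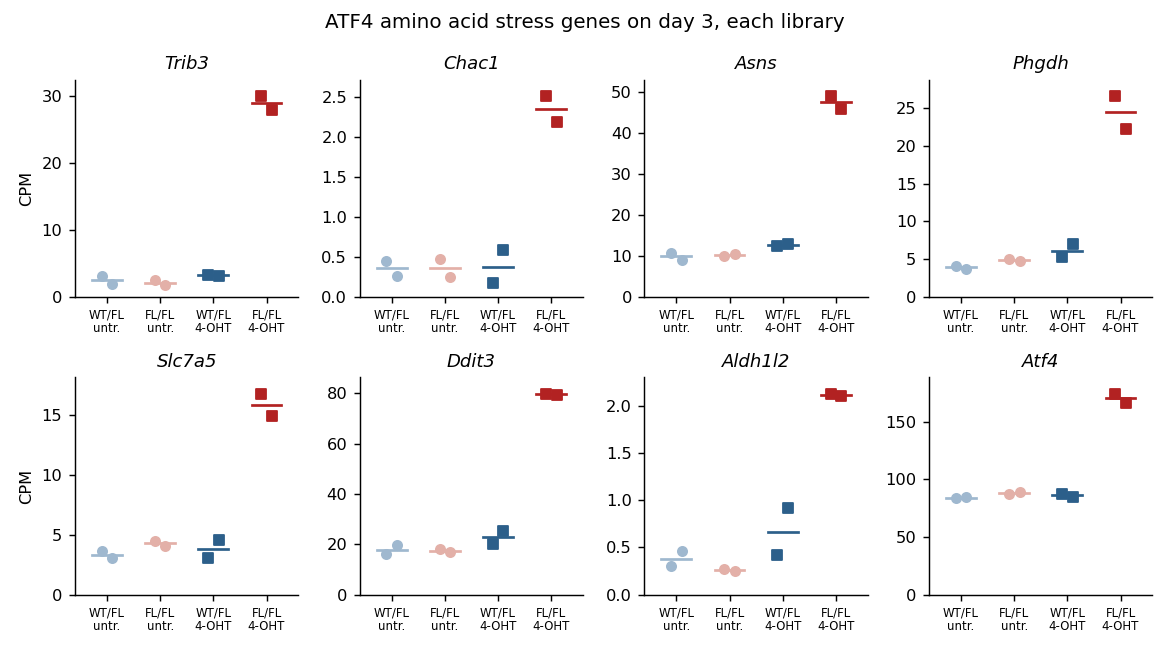
CPM (linear axes from 0) of 8 genes of the amino acid stress response in the 8 libraries of day 3, with points for libraries and lines for group means. In each panel both 4-OHT-treated Trex1 FL/FL libraries lie above all 6 others, as for Asns at 49.1 and 46.0 CPM against 12.4 and 12.9 CPM.

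The change of this group was larger on day 3 than on its neighbouring days. The list's median change stood at -0.021 and 0.37 for days 1 and 2, reached 0.95 at day 3 and was back at 0.49 by day 4. Tested as the genotype effect of day 3 minus the mean effect of days 2 and 4, 16 of the 31 members were more positive on day 3 and 0 more negative at an adjusted p below 0.05, beside 2.26% of all genes more positive and 2.29% more negative. That difference was 1.42 for Trib3 (adjusted p = 0.00155), 1.36 for Slc7a5 (adjusted p = 0.000124) and 0.98 for Asns (adjusted p = 8.91e-06). For Ddit3 it was 0.34 and missed the threshold (adjusted p = 0.214). The ER unfolded protein response, a neighbouring stress programme, had 7 of its 22 members higher and 1 lower, by small amounts, and 4 or 5 higher with 1 library left out. Hspa5, the chaperone BiP, stood at 1405 and 1397 CPM against 1108 and 1102 CPM (0.34 ± 0.051, adjusted p = 1.67e-05) and Hyou1, another ER chaperone, changed by as much (0.34 ± 0.061, adjusted p = 0.000209). The 1 lowered member was Herpud1, of the ER degradation machinery (-0.38 ± 0.12, adjusted p = 0.0289, and 0.0577 to 0.190 without each of the 4 libraries in turn).

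The letters TGATGNAA, the core of the element that ATF4 binds with C/EBP partners, were looked for on both strands of the 250 bases before the start of each gene's canonical transcript in GRCm39 (GENCODE vM39); this element was chosen after the values were seen. They occur in 5 of 31 promoters of the list (16.1%), beside 2.19% of 12806 promoters of protein-coding genes tested. The list was written from known genes of this response, so its share is no result of these data. Among the 65 protein-coding genes called higher on day 3, 5 promoters (7.69%) hold them. These include Chac1 and Ddit3 of the list, so this share is not separate from that of the list. The promoters of Chac1 (chr2:119181439-119181688, plus strand), Ddit3 (chr10:127126310-127126559, plus strand), Slc7a11 (chr3:50398064-50398313, minus strand) and Aars1 (chr8:111760258-111760507, plus strand) are shown because they hold these letters, which are in capitals, and because Chac1, Ddit3 and Aars1 rose while Slc7a11 did not pass the test.
Chac1: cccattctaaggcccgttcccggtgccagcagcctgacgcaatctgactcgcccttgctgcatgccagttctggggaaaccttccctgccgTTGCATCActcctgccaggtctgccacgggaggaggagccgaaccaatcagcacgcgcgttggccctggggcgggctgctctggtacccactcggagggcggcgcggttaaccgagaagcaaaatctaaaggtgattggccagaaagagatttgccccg
Ddit3: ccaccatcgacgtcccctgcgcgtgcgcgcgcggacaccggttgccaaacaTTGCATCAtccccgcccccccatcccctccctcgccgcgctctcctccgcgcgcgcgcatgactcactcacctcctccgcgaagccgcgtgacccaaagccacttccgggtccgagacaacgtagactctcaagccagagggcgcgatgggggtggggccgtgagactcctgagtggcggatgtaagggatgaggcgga
Slc7a11: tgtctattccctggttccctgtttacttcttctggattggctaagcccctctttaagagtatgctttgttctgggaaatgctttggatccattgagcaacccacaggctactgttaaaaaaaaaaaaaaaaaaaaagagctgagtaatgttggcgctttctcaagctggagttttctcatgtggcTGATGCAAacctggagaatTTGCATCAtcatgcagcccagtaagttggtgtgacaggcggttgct
Aars1: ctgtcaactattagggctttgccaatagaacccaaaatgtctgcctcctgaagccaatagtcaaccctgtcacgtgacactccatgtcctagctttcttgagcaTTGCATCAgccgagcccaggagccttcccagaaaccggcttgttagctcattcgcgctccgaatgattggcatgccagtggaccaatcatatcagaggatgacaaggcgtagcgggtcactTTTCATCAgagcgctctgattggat
Slc7a11 and Aars1 hold 2 matches each and the others 1. The promoters of Trib3, Asns and Phgdh hold none in this window, which says only that these letters are not there.

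Interferon-inducible genes rose broadly. Of 40 antiviral effectors, 37 were higher and 1 lower at an adjusted p below 0.05, with a median of 0.90, and 6 passed the stricter call. Ifit1bl1, of the family that binds foreign RNA ends, stood at 327 and 263 CPM against 42.6 and 52.4 CPM (2.64 ± 0.21, adjusted p = 1.31e-07). Rsad2, the radical enzyme viperin, stood at 1053 and 949 CPM against 244 and 337 CPM (1.78 ± 0.26, adjusted p = 9.67e-05), and Cmpk2, a mitochondrial nucleotide kinase encoded next to it, at 578 and 487 CPM against 158 and 188 CPM (1.62 ± 0.17, adjusted p = 2.78e-06). All 3 genes were expressed in the controls too, and their groups did not overlap. Isg20, an RNA exonuclease, Ifit2 and Oasl1, of the oligoadenylate synthetase-like family, rose by 1.59, 1.59 and 1.58 on the log2 scale.

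The letters GAAANNGAAA, the core of the interferon-stimulated response element, occur in 19 of the 40 promoters of this list (47.5%), beside 3.26% of all 12806, searched in the same way. This list, too, was written from known genes, so its share is no result of these data. Among the 65 protein-coding genes called higher on day 3, 6 promoters (9.23%) hold them. As these include Rsad2 and Ifit1bl1 of the list, this share is not separate from that of the list. The promoters of Rsad2 (chr12:26506452-26506701, minus strand) and Ifit1bl1 (chr19:34579357-34579606, minus strand), the list's largest increases, are shown with the match in capitals.
Rsad2: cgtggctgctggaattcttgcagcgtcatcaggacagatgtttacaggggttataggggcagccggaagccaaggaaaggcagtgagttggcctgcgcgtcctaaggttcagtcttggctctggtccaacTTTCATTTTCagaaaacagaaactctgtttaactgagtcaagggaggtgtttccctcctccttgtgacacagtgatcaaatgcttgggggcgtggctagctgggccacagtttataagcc
Ifit1bl1: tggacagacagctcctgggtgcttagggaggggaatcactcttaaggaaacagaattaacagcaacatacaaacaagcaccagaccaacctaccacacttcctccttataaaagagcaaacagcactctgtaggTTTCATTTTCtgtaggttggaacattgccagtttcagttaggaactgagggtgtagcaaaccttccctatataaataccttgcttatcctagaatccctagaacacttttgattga
In both promoters the match is on the reverse strand, 120 and 116 bases before the transcript start.

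The interferon list went the other way from the amino acid list between days. Its median of 0.90 at day 3 lay below both that of day 2, 1.17, and that of day 4, 1.96, and 28 of 40 members were less raised on day 3 than on the mean of days 2 and 4, with 0 more raised. These are changes against 4-OHT-treated controls, which were themselves raised on day 3. In Trex1 WT/FL cells of day 3 the list's median change with 4-OHT over untreated was 0.31, beside 0 for all genes. The part of this in the smaller change of day 3 was not tested. Of 16 interferon signalling genes, 6 were higher and 2 lower. Usp18, the brake on the interferon receptor, stood at 215 and 191 CPM against 67.0 and 84.2 CPM (1.43 ± 0.12, adjusted p = 2.34e-08) and Irf7, the factor that amplifies interferon production, at 2519 and 2260.3 CPM against 873 and 1054 CPM (1.31 ± 0.20, adjusted p = 0.000168). Ifnar1, a receptor chain, was lower at 195 and 202 CPM against 263 and 239.8 CPM (-0.34 ± 0.062, adjusted p = 0.000185), and so was Irf8, a factor of the myeloid lineage, at 219 and 223 CPM against 256 and 264 CPM (-0.24 ± 0.064, adjusted p = 0.00860, and 0.0752 to 0.0760 without FL/FL replicate 1 or WT/FL replicate 2). Ifnb1 itself was low, with 15 and 20 counts against 2 and 3 counts. Its change of 2.84 did not pass the test (adjusted p = 0.125), so a rise was not resolved.

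Sensors of nucleic acids rose with the effectors, 17 of 28 and 0 lower. Ifi205, of the Ifi200 family of DNA-binding proteins, stood at 64.3 and 58.0 CPM against 15.6 and 17.7 CPM (1.88 ± 0.29, adjusted p = 0.000136). Its relative Ifi206 stood at 237 and 230.5 CPM against 84.9 and 104 CPM (1.31 ± 0.19, adjusted p = 0.000104). Of their 31-base words, 22.6% and 37.0% occur in other genes too. Cgas changed by 0.34 ± 0.11 (adjusted p = 0.0242, and 0.0770 to 0.171 without FL/FL replicate 1, WT/FL replicate 1 or WT/FL replicate 2), while Sting1 stood at 62.5 and 67.4 CPM against 68.5 and 80.0 CPM and did not pass the test (-0.19 ± 0.09, adjusted p = 0.159). Chemokines were mixed, with 9 of 21 higher and 2 lower. Cxcl11, a ligand of CXCR3, rose from a low level to 3.68 and 3.39 CPM against 0.457 and 0.469 CPM (2.92 ± 0.57, adjusted p = 0.000426). Pf4, a platelet-type chemokine that macrophages also make, was lower at 45.1 and 42.9 CPM against 82.4 and 71.7 CPM (-0.81 ± 0.088, adjusted p = 2.06e-07), and so was Cx3cl1 (-1.14 ± 0.25, adjusted p = 0.00165, and 0.0805 without WT/FL replicate 1). Of 29 cytokines and growth factors, 7 were higher and 4 lower, and 2 in each direction without Trex1 WT/FL replicate 1. Csf1, the macrophage growth factor, stood at 36.2 and 37.5 CPM against 12.9 and 16.1 CPM (1.35 ± 0.21, adjusted p = 0.000105) and Il27, of the IL-12 family, at 2.98 and 2.86 CPM against 1.14 and 1.25 CPM (1.28 ± 0.31, adjusted p = 0.00367, and 0.0524 without WT/FL replicate 1). Igf1, a growth factor of resting macrophages, was lower at 421 and 447 CPM against 818 and 731 CPM (-0.83 ± 0.075, adjusted p = 5.25e-09), and Pdgfa, a growth factor for stromal cells, at 7.51 and 7.81 CPM against 12.2 and 12.8 CPM (-0.70 ± 0.13, adjusted p = 0.000205).

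The 2 branches of antigen presentation moved in opposite directions. All 20 class I genes and processing factors were higher at an adjusted p below 0.05, with a median of 0.58. The nonclassical gene H2-Q6 led with 137 and 143 CPM against 16.3 and 33.0 CPM (2.52 ± 0.24, adjusted p = 9.16e-07), followed by H2-Q7 at 252 and 249 CPM against 65.2 and 94.6 CPM (1.65 ± 0.14, adjusted p = 9.03e-08). Of their 31-base words, 48.0% and 38.2% occur in other genes, so the values of the 2 are uncertain. Of 12 class II pathway genes, 6 were lower and 1 higher. H2-Eb1, a class II β chain, stood at 20.3 and 16.9 CPM against 49.2 and 51.8 CPM (-1.45 ± 0.16, adjusted p = 9.28e-07). H2-Ab1, the other β chain, stood at 38.8 and 30.1 CPM against 77.1 and 83.9 CPM (-1.23 ± 0.26, adjusted p = 0.00222), and its partner, the α chain H2-Aa, at 35.3 and 24.5 CPM against 62.7 and 74.1 CPM (-1.20 ± 0.23, adjusted p = 0.000951). All 3 chains were at their lowest in both Trex1 FL/FL libraries. Their regulator Ciita stood at 5.20 and 4.21 CPM against 7.84 and 10.7 CPM (-0.98 ± 0.19, adjusted p = 0.000346). The invariant chain Cd74 stood at 196 and 174 CPM against 324 and 400.3 CPM (-0.97 ± 0.16, adjusted p = 0.000201). Ctss, the protease that trims the invariant chain, was the exception at 5447 and 5274 CPM against 3475 and 3518 CPM (0.62 ± 0.06, adjusted p = 2.61e-08). The class II list had a median of -0.15 on day 2, -0.70 on day 3 and -0.42 on day 4, and 0.046 in untreated cells of day 3. Dendritic cell markers, which would carry class II RNA, were at most 3.10 CPM in sum, and their part in this result was not tested.

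Genes of alternatively activated macrophages, the state that IL-4 induces, leaned to the lowered side. Of 20 members tested, 7 were lower and 1 higher, with a median of -0.88 beside -0.15 in untreated cells, and 3 passed the stricter call. F13a1, the coagulation factor XIII A chain of resident macrophages, stood at 21.0 and 25.9 CPM against 140.0 and 110.2 CPM (-2.41 ± 0.26, adjusted p = 4.31e-06). Clec10a, the galactose-type lectin MGL1, stood at 31.8 and 30.9 CPM against 93.9 and 81.8 CPM (-1.49 ± 0.091, adjusted p = 9.01e-12). Its close relative Mgl2 stood at 0 and 0.0855 CPM against 0.571 and 0.871 CPM (-3.72 ± 0.69, adjusted p = 0.000239). Both lectins were also lower in 4-OHT-treated than in untreated Trex1 WT/FL cells, which held 213 and 255 CPM of Clec10a (adjusted p = 4.23e-11) and 4.40 and 8.93 CPM of Mgl2 (adjusted p = 0.000309). The genotype difference thus lay beneath a decrease with 4-OHT that the controls also had. Mrc1, the mannose receptor, stood at 609 and 667 CPM against 1236 and 1072 CPM (-0.85 ± 0.14, adjusted p = 0.000148). Stab1, a scavenger receptor, stood at 665 and 669.6 CPM against 1166 and 1283 CPM (-0.88 ± 0.11, adjusted p = 4.22e-06). Irf4, a factor of IL-4 responses, stood at 3.54 and 2.79 CPM against 5.94 and 5.61 CPM (-0.88 ± 0.22, adjusted p = 0.00482, and 0.0994 without FL/FL replicate 2), while Folr2, the folate receptor β, went up to 51.0 and 47.1 CPM against 36.6 and 23.7 CPM (0.70 ± 0.20, adjusted p = 0.0212, and 0.0594 to 0.249 without FL/FL replicate 1, FL/FL replicate 2 or WT/FL replicate 2). Arg1 was at most 2 counts per library and gives no comparison.

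**Figure D4:**
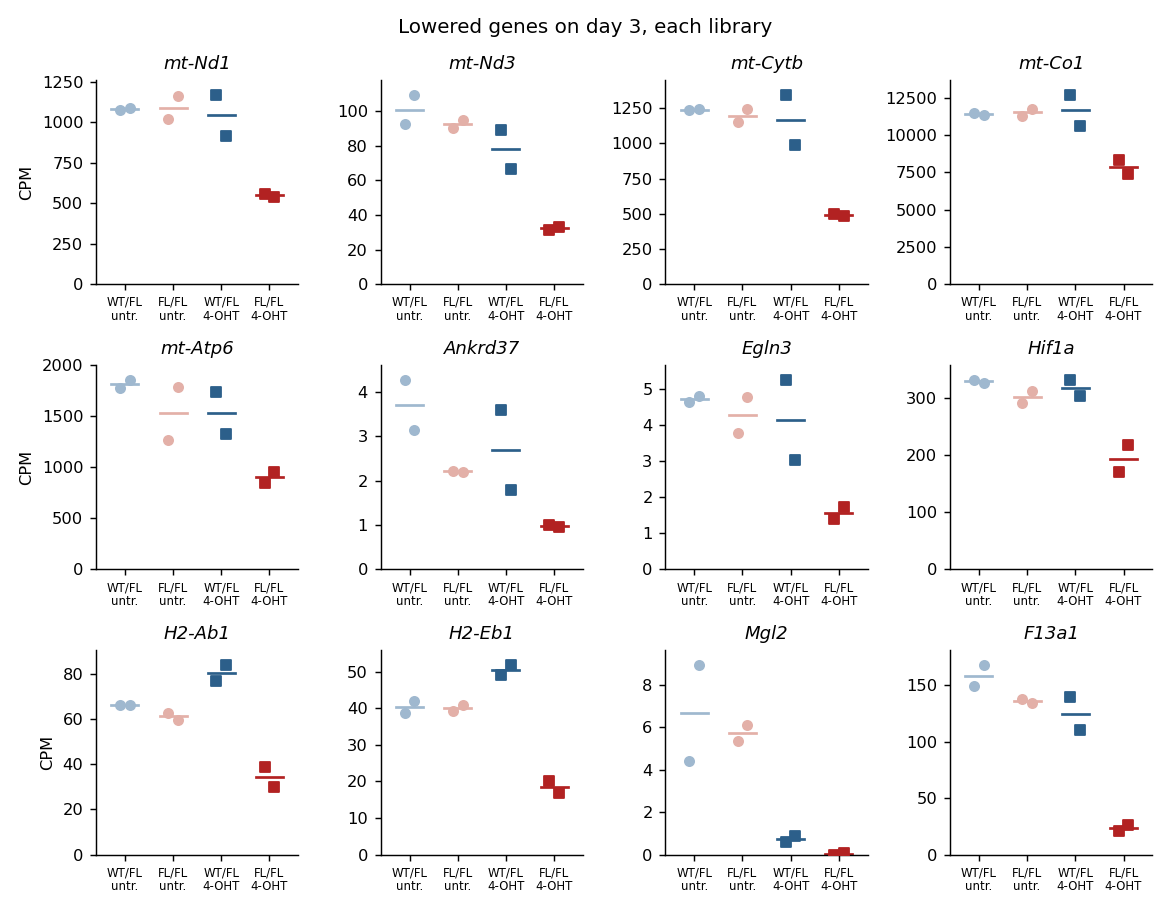
CPM (linear axes from 0) of 12 lowered genes in the 8 libraries of day 3, with points for libraries and lines for group means. Both 4-OHT-treated Trex1 FL/FL libraries lie below all 6 others in each panel, and in the Mgl2 panel the 4-OHT-treated Trex1 WT/FL libraries are themselves far below the untreated ones.

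Surface receptors moved both ways. Of 29 phagocytic and scavenger receptors, 7 were higher and 9 lower. The high-affinity IgG receptor Fcgr1 stood at 932 and 981 CPM against 372 and 418 CPM (1.28 ± 0.11, adjusted p = 4.26e-08) and Fcgr4, another activating Fc receptor, at 202 and 194 CPM against 76.1 and 88.5 CPM (1.27 ± 0.13, adjusted p = 5.16e-07). Both Fc receptors lay above the controls without overlap. Itgax, the integrin CD11c, was lower at 0.965 and 0.958 CPM against 2.87 and 2.77 CPM (-1.55 ± 0.25, adjusted p = 4.26e-05). Marco, a scavenger receptor for bacteria and particles, stood at 67.4 and 67.0 CPM against 156 and 217 CPM (-1.47 ± 0.34, adjusted p = 0.00452). The macrophage markers themselves were not all moved alike. Itgam, the integrin CD11b, stood at 1046 and 1132 CPM against 1503 and 1257 CPM (-0.34 ± 0.067, adjusted p = 0.000434, and 0.0579 without WT/FL replicate 1), and 66.0% of its 31-base words occur in other annotated genes. Csf1r, the receptor that keeps macrophages alive, stood at 4460.3 and 4457 CPM against 5977 and 5457 CPM (-0.36 ± 0.057, adjusted p = 3.74e-05), and Cd68 at 1178 and 1127 CPM against 948 and 1004 CPM (0.24 ± 0.056, adjusted p = 0.00263, and 0.0509 to 0.0604 without FL/FL replicate 1 or WT/FL replicate 1). Adhesion and matrix genes leaned down, 9 of 29 lower and 4 higher, with 6 lower without replicate 1 of either genotype. Mmp9, a gelatinase, stood at 5.06 and 4.92 CPM against 14.7 and 15.5 CPM (-1.60 ± 0.26, adjusted p = 0.000195), and Cx3cr1, the fractalkine receptor, at 12.8 and 12.1 CPM against 35.8 and 25.5 CPM (-1.31 ± 0.17, adjusted p = 2.4e-05). On the raised side, Itgb7, an integrin chain, stood at 103 and 92.6 CPM against 43.0 and 44.4 CPM (1.16 ± 0.14, adjusted p = 8.13e-06). Vcam1, an adhesion molecule, was low at 0.175 and 0.103 CPM against 0.628 and 1.27 CPM (-2.80 ± 0.66, adjusted p = 0.00294, and 0.0662 without FL/FL replicate 2), and on day 2 its change had the opposite sign (2.85, adjusted p = 0.0301).

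Called decreases also included genes outside the pathway lists. Cbfa2t3, a transcriptional corepressor of blood progenitors, stood at 0.322 and 0.137 CPM against 2.57 and 1.5 CPM (-3.24 ± 0.53, adjusted p = 6.12e-05), and Myb, a factor of progenitors, held 1 and 2 counts against 16 and 17 counts (adjusted p = 0.00298). Slco2b1, an organic anion carrier found in tissue macrophages, stood at 1.64 and 1.59 CPM against 12.0 and 7.26 CPM (-2.58 ± 0.32, adjusted p = 4.88e-06), and Fzd1, a Wnt receptor, at 4.77 and 6.70 CPM against 24.6 and 18.5 CPM (-1.89 ± 0.18, adjusted p = 1.92e-08). Dcstamp, needed for macrophage and osteoclast fusion, stood at 0.205 and 0.410 CPM against 1.41 and 1.63 CPM (-2.19 ± 0.39, adjusted p = 0.000351), while the osteoclast marker Ctsk, a collagen protease, stood at 15.6 and 12.1 CPM against 9.42 and 9.94 CPM (0.50 ± 0.24, adjusted p = 0.187). Serpinf1, a secreted serpin, stood at 0.117 and 0.188 CPM against 2.19 and 0.759 CPM (-3.21 ± 0.72, adjusted p = 0.00177, and 0.0713 without WT/FL replicate 1), with 1 control library far above the other. At the bottom of the range, BC035044, Cd209f and Klhl3 held 0 counts in both Trex1 FL/FL libraries against 24 and 12, 16 and 7, and 16 and 4 counts, at least 5.21-fold, 3.32-fold and 2.83-fold lower against the floor of 3 counts per library. Pear1 held 0 counts against 17 and 2 counts. Their calls rest on these few counts.

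Immediate early genes, which growth factor and stress signals switch on within minutes, were lower in 12 of 35 members and higher in 4, with a median of -0.31, which was -0.14 without Trex1 WT/FL replicate 1. Egr2, a zinc finger factor of macrophage identity, stood at 1.46 and 1.93 CPM against 5.37 and 4.76 CPM (-1.56 ± 0.22, adjusted p = 6e-06) and Dusp5, a phosphatase that dampens ERK, at 3.95 and 3.35 CPM against 12.9 and 8.20 CPM (-1.54 ± 0.23, adjusted p = 3.57e-05). Egr3, of the same family, was called from a lower level at 0.614 and 0.308 CPM against 1.71 and 1.34 CPM (-1.76 ± 0.48, adjusted p = 0.00946, and 0.0786 to 0.160 without FL/FL replicate 2 or WT/FL replicate 1). Fosb, a subunit of the AP-1 factor, stood at 0.351 and 0.188 CPM against 1.05 and 0.871 CPM (-1.92 ± 0.47, adjusted p = 0.00478, and 0.0533 to 0.132 without FL/FL replicate 2 or WT/FL replicate 1). All 4 called members were thus genes of at most 12.9 CPM. On the raised side stood Klf4, a macrophage differentiation factor, at 20.4 and 20.0 CPM against 11.1 and 11.8 CPM (0.82 ± 0.15, adjusted p = 0.000202) and Atf3, a stress factor that ATF4 also induces, at 248 and 217 CPM against 156 and 149.7 CPM (0.60 ± 0.066, adjusted p = 1.48e-07). NF-κB pathway genes changed by small amounts, 6 lower and 2 higher of 21 (2 or 3 lower without either Trex1 FL/FL library or without Trex1 WT/FL replicate 1), from Tnfaip2 (-0.39, adjusted p up to 0.0544 with 1 library left out) and Tnfaip3, the A20 brake (-0.38, adjusted p up to 0.0537 with 1 library left out), to Nfkbib, an inhibitor subunit (0.46), and Traf1, a receptor adaptor (0.72).

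Of 381 metabolic genes tested across 16 lists, 74 were higher and 77 lower at an adjusted p below 0.05. Over all genes tested those shares were 9.90% and 9.11%, against which the counts of each list below are to be read. By the stricter rule 7 were called higher and 0 lower, beside 0.485% and 0.387% of all genes. The joint median of the 381 was 0.0086. The 7 called are those of the amino acid stress response given above, and no member of the other 15 lists passed the stricter rule. At the stricter shares of all genes, few calls would fall in lists of this size.

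Genes of the respiratory chain encoded in mitochondrial DNA were lower. Of the 13 mRNAs, 12 were lower at an adjusted p below 0.05 and all had negative changes, with a median of -1.0, which is 49.8% of the control. mt-Cytb, the core of complex III, stood at 502 and 483 CPM against 1345 and 989 CPM (-1.24 ± 0.18, adjusted p = 6.96e-05). mt-Nd1, a subunit of complex I, stood at 558 and 539 CPM against 1169 and 918 CPM (-0.93 ± 0.18, adjusted p = 0.00108), and mt-Co1, the catalytic subunit of complex IV, at 8304 and 7392 CPM against 12701 and 10636 CPM (-0.57 ± 0.17, adjusted p = 0.0282, and 0.0724 to 0.231 without FL/FL replicate 1, FL/FL replicate 2 or WT/FL replicate 1). The 2 largest changes in the list were those of the short mRNAs mt-Nd4l (-1.42 ± 0.34, adjusted p = 0.00670, and 0.0777 to 0.0882 without FL/FL replicate 2 or WT/FL replicate 1) and mt-Nd3 (-1.27 ± 0.31, adjusted p = 0.00673, and 0.0586 to 0.0820 without FL/FL replicate 1 or WT/FL replicate 1), of whose 31-base words 98.9% and 99.1% also occur in other annotated genes. Such shared words made up 62.8% to 100% of mt-Co1, mt-Co2, mt-Co3, mt-Atp6 and mt-Nd4, and 0% to 16.8% of the rest. Together the 13 mRNAs took 1.25% and 1.18% of all counts in the Trex1 FL/FL libraries, against 2.37% and 1.87% in the Trex1 WT/FL libraries and 1.98% to 2.22% in the 4 untreated libraries of day 3. The mitochondrial rRNAs took 0.173% and 0.174% against 0.248% and 0.223%, and 0.200% to 0.239% in the untreated libraries. What part this holds in the result was not tested. The control libraries differed from each other too, but both stood above the Trex1 FL/FL libraries, and the list's median was between -1.22 and -0.78 with any 1 of the 4 libraries left out. It was the lowest of the lists with all libraries, but not without Trex1 WT/FL replicate 1 (-0.78 against -0.84 for alternative activation and -0.81 for the class II pathway) or Trex1 FL/FL replicate 2 (-1.02 against -1.14 for alternative activation). Without Trex1 WT/FL replicate 1, the library with the highest share, 7 of the 13 were lower. Without Trex1 FL/FL replicate 1 or replicate 2 it was 8. At day 1 the median change stood at 0.074, at day 2 at -0.41 and at day 4 at -0.85, and -0.034 between untreated genotypes of day 3. With the untreated cells subtracted, 8 of the 13 were more negative at an adjusted p below 0.05. This test, too, uses the same 4-OHT libraries again.

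Nuclear genes for the same complexes did not follow. Of 48 tested, 3 were higher and 1 lower, with a median of 0.011 and extremes of -0.20 and 0.49. Uqcrq, a small subunit of complex III, stood at 64.3 and 61.2 CPM against 45.4 and 44.1 CPM (0.49 ± 0.09, adjusted p = 0.000240). Cycs, cytochrome c, stood at 38.8 and 34.3 CPM against 25.7 and 26.6 CPM (0.48 ± 0.078, adjusted p = 4.26e-05), while Uqcrh, also of complex III, was lower (-0.20 ± 0.067, adjusted p = 0.0365, and 0.0503 to 0.272 without each of the 4 libraries in turn). Outside the list, Cox6a2, the muscle-type subunit of complex IV, was called higher from a low level at 8.36 and 6.09 CPM against 0.761 and 1.76 CPM (2.52 ± 0.38, adjusted p = 2.02e-05). In the citric acid cycle, 4 of 29 genes were lower and 2 higher, beside 9.11% lower and 9.90% higher of all genes tested. Fh1, fumarase, fell to 53.5 and 54.0 CPM against 110.0 and 91.7 CPM (-0.91 ± 0.07, adjusted p = 3.35e-10). The isocitrate dehydrogenase Idh1 stood at 201 and 202 CPM against 276 and 255 CPM (-0.40 ± 0.058, adjusted p = 1e-05) and its mitochondrial relative Idh2 at 59.4 and 56.8 CPM against 78.2 and 74.4 CPM (-0.39 ± 0.059, adjusted p = 1.75e-05). The 2 raised genes moved little, Sdhb of succinate dehydrogenase by 0.16, adjusted p up to 0.272 with 1 library left out, and Dld of the pyruvate dehydrogenase complex by 0.15, adjusted p up to 0.196 with 1 library left out.

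Hypoxia-inducible genes, which the factor HIF-1 turns on when oxygen is low, were lower in 13 of 26 members and higher in 1, with a median of -0.43. Without Trex1 WT/FL replicate 1, 7 were lower and the median was -0.31. Hif1a itself stood at 171 and 218 CPM against 332 and 304 CPM (-0.71 ± 0.078, adjusted p = 1.81e-07). Egln3, an oxygen-sensing hydroxylase that HIF induces, stood at 1.40 and 1.73 CPM against 5.23 and 3.04 CPM (-1.39 ± 0.24, adjusted p = 0.000121). Ak4, a mitochondrial adenylate kinase, stood at 0.936 and 1.81 CPM against 4.32 and 2.90 CPM (-1.34 ± 0.27, adjusted p = 0.000683). In all 3 genes both Trex1 FL/FL libraries were below both controls. Ankrd37, an ankyrin repeat gene, stood at 0.994 and 0.958 CPM against 3.60 and 1.79 CPM (-1.47 ± 0.29, adjusted p = 0.000436, and 0.0666 without WT/FL replicate 1). Against untreated cells Ankrd37 did not pass the interaction test (adjusted p = 0.309), and 6 members did, all more negative. Vegfa, the vascular growth factor, stood at 32.9 and 38.7 CPM against 63.2 and 43.4 CPM (-0.57 ± 0.16, adjusted p = 0.0171, and 0.169 to 0.346 without FL/FL replicate 1 or WT/FL replicate 1), below 148 and 161 CPM in untreated Trex1 FL/FL and 191 and 142 CPM in untreated Trex1 WT/FL cells. Its decrease with 4-OHT passed the test in Trex1 WT/FL cells as well (adjusted p = 9.2e-06). The exception was Ero1a, an ER oxidase, at 85.7 and 94.6 CPM against 73.9 and 71.1 CPM (0.32 ± 0.079, adjusted p = 0.00498, and 0.0527 to 0.103 without FL/FL replicate 2 or WT/FL replicate 2). The cores ACGTG and GCGTG of the hypoxia response element occur in 73.1% of these promoters and in 51.9% of all, so most promoters hold them.

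Glycolysis leaned the same way by smaller amounts, 8 of 24 genes lower and 3 higher, with a median of -0.15. Its lowered side was unstable, at 2 genes without Trex1 WT/FL replicate 1, where the median was -0.091, 3 without Trex1 FL/FL replicate 1 and 5 without Trex1 FL/FL replicate 2. Eno2, an enolase, stood at 2.16 and 1.93 CPM against 3.50 and 3.39 CPM (-0.76 ± 0.24, adjusted p = 0.0261, and 0.0793 to 0.178 without each of the 4 libraries in turn), and Pfkfb4, a regulator of phosphofructokinase that is also a neighbour of Trex1, at 36.7 and 36.8 CPM against 61.0 and 54.7 CPM (-0.65 ± 0.073, adjusted p = 2.11e-07). The raised members were a hexokinase, Hk3, at 278 and 242 CPM against 152 and 165 CPM (0.71 ± 0.075, adjusted p = 8.19e-08), and the platelet phosphofructokinase Pfkp at 98.9 and 100.5 CPM against 62.9 and 64.0 CPM (0.65 ± 0.059, adjusted p = 6.33e-09), beside Hk1 (0.29, adjusted p up to 0.0652 with 1 library left out). The glucose carrier Slc2a1 stood at 42.7 and 47.0 CPM against 55.8 and 46.8 CPM (-0.19 ± 0.11, adjusted p = 0.289), hexokinase Hk2 at 57.1 and 61.2 CPM against 58.4 and 52.4 CPM (0.095 ± 0.083, adjusted p = 0.496) and lactate dehydrogenase Ldha at 392 and 394 CPM against 453 and 363 CPM (-0.053 ± 0.081, adjusted p = 0.732), and none of these passed the test. In the pentose phosphate pathway Pgd and Taldo1 were lower by small amounts (-0.28, adjusted p up to 0.238 with 1 library left out and -0.24, adjusted p up to 0.310 with 1 library left out) and Rpe was higher (0.30), of 7 tested.

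In sterol synthesis and uptake 8 of 26 were higher and 1 lower, all within -0.44 and 0.48, and with 1 library left out 5 were higher. The largest were those of Mvk, mevalonate kinase (0.48 ± 0.11, adjusted p = 0.00284, and 0.0797 to 0.0963 without FL/FL replicate 1 or WT/FL replicate 1), and Dhcr7, the last enzyme of cholesterol synthesis (0.45 ± 0.10, adjusted p = 0.00119, and 0.0587 to 0.0628 without FL/FL replicate 2 or WT/FL replicate 1), with Stard4, a sterol carrier, lower (-0.44 ± 0.094, adjusted p = 0.00122, and 0.0938 without WT/FL replicate 1). Hmgcs1, an early enzyme, stood at 45.8 and 49.9 CPM against 50.8 and 42.8 CPM and did not pass the test (adjusted p = 0.855). The sterol list's median was already 0.15 between the untreated genotypes, against 0.12 with 4-OHT, and 1 of 26 members was more positive and 1 more negative with the untreated cells subtracted. A median of like size was thus present without 4-OHT. Soat2, which esterifies cholesterol, was called from outside the list at 4.62 and 4.68 CPM against 0.286 and 0.782 CPM (3.14 ± 0.38, adjusted p = 7.66e-07), low in every other library of day 3, with 0.300 and 0.444 CPM in untreated Trex1 FL/FL and 0.363 and 0.460 CPM in untreated Trex1 WT/FL cells.

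Among fatty acid synthesis genes, 8 of 25 were higher and 2 lower, and with 1 library left out 3 to 5 were higher. Scd2, a stearoyl-CoA desaturase, stood at 157 and 198 CPM against 93.1 and 104 CPM (0.85 ± 0.13, adjusted p = 7.19e-05) and its relative Scd1 at 9.06 and 9.08 CPM against 3.71 and 5.74 CPM (0.95 ± 0.28, adjusted p = 0.0203, and 0.0812 to 0.238 without FL/FL replicate 1, FL/FL replicate 2 or WT/FL replicate 1). The change of Scd2 was -0.17 on day 2 and -0.33 on day 4, and its difference on day 3 from the mean of these passed the test (1.10, adjusted p = 0.000233). Fads3, a desaturase of the same family as Fads2, was lower at 1.93 and 1.85 CPM against 4.05 and 3.64 CPM (-1.03 ± 0.20, adjusted p = 0.000357), and so was Lpin1, a phosphatidate phosphatase, at 21.5 and 24.9 CPM against 35.0 and 37.3 CPM (-0.63 ± 0.10, adjusted p = 1.87e-05). Fatty acid oxidation genes were lower in 5 of 24 members, with Cpt1a, the entry step into mitochondria, at 131 and 135 CPM against 165 and 162 CPM (-0.30 ± 0.065, adjusted p = 0.00139) and Hadhb, of the trifunctional enzyme, at 52.2 and 52.1 CPM against 65.4 and 67.3 CPM (-0.35 ± 0.058, adjusted p = 6.57e-05). The 1 raised member was Pex11a, a peroxisome gene (0.65 ± 0.20, adjusted p = 0.0188, and 0.0524 to 0.151 without each of the 4 libraries in turn).

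Targets of LXR, the oxysterol receptor that drives cholesterol efflux, moved both ways, 5 of 18 higher and 4 lower, with 2 lower without Trex1 WT/FL replicate 2 or without Trex1 FL/FL replicate 1. The 2 efflux pumps went apart, with Abca1 at 777 and 939 CPM against 1224 and 1155 CPM (-0.47 ± 0.08, adjusted p = 0.000105) and Abcg1 at 365 and 405 CPM against 221 and 278 CPM (0.63 ± 0.09, adjusted p = 1.62e-05). Nr1h3, which encodes LXRα, stood at 53.9 and 48.3 CPM against 27.6 and 30.7 CPM (0.81 ± 0.10, adjusted p = 1.2e-06) and Cd5l, a secreted inhibitor of apoptosis of macrophages, at 1269 and 1109.9 CPM against 675 and 499 CPM (1.02 ± 0.26, adjusted p = 0.00948, and 0.0748 to 0.117 without FL/FL replicate 1 or WT/FL replicate 2). Cyp27a1, which makes the LXR ligand 27-hydroxycholesterol, was lower at 60.8 and 61.5 CPM against 101 and 104 CPM (-0.74 ± 0.082, adjusted p = 1.7e-07), and so was the apolipoprotein gene Apoc1 at 1.26 and 1.74 CPM against 3.54 and 4.11 CPM (-1.34 ± 0.37, adjusted p = 0.0122, and 0.0713 to 0.130 without FL/FL replicate 1 or WT/FL replicate 2). Ch25h, which makes 25-hydroxycholesterol and is known as interferon-inducible, stood at 1.23 and 1.61 CPM against 0.895 and 1.07 CPM and did not pass the test (adjusted p = 0.574). In lipid uptake and storage, 7 of 21 genes were higher and 4 lower, and 3 to 6 higher with 1 library left out. Lipg, endothelial lipase, rose from near 0 to 1.20 and 0.769 CPM against 0.247 and 0.0893 CPM (2.49 ± 0.73, adjusted p = 0.0175, and 0.111 to 0.167 without FL/FL replicate 1 or WT/FL replicate 2). Fabp3, a fatty acid binding protein, rose by 0.58, adjusted p up to 0.274 with 1 library left out. Angptl4, an inhibitor of lipoprotein lipase, was lower at 0.877 and 1.32 CPM against 3.03 and 2.61 CPM (-1.33 ± 0.26, adjusted p = 0.000503). Aqp9, a channel for glycerol and other small solutes, was called at 3.51 and 3.44 CPM against 0.400 and 0.380 CPM (3.14 ± 0.32, adjusted p = 5.5e-08).

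Of 23 genes of arginine, itaconate, tryptophan and glutamine metabolism, 5 were higher and 2 lower, with 3 higher without Trex1 WT/FL replicate 1 or without Trex1 FL/FL replicate 2. Acod1, which makes itaconate from cis-aconitate, stood at 503 and 465 CPM against 225 and 251 CPM (1.02 ± 0.16, adjusted p = 0.000185). Nos2, the inducible nitric oxide synthase, stood at 4.18 and 3.83 CPM against 0.799 and 1.70 CPM (1.69 ± 0.51, adjusted p = 0.0219, and 0.0655 to 0.241 without FL/FL replicate 1, FL/FL replicate 2 or WT/FL replicate 1), although its levels were low and the interaction with the untreated cells did not pass the test (adjusted p = 0.801). Ass1, which recycles citrulline to arginine, was also higher (0.84 ± 0.10, adjusted p = 2.22e-06). Glul, glutamine synthetase, fell to 311 and 334 CPM against 694 and 611 CPM (-1.02 ± 0.063, adjusted p = 7.98e-12), and Kmo, of kynurenine breakdown, stood at 10.8 and 15.5 CPM against 27.5 and 25.0 CPM (-0.99 ± 0.21, adjusted p = 0.00139).

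Enzymes of prostaglandins and leukotrienes were lower in 6 of 17 members and higher in 2. Hpgd, which inactivates prostaglandin E2, stood at 4.36 and 6.26 CPM against 22.4 and 20.7 CPM (-2.00 ± 0.21, adjusted p = 1.42e-07), and its change also passed the test on day 2 (-1.87) and day 4 (-1.44). Ptgs1, the constitutive cyclooxygenase, stood at 17.8 and 14.6 CPM against 44.7 and 44.3 CPM (-1.47 ± 0.082, adjusted p = 8.85e-13). Pla2g4a, which frees arachidonic acid, was higher at 23.0 and 22.9 CPM against 12.5 and 16.4 CPM (0.67 ± 0.10, adjusted p = 1.16e-05), and Hpgds, a prostaglandin D synthase, by 0.29, adjusted p up to 0.0704 with 1 library left out.

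Antioxidant genes under NRF2, the sensor of oxidative stress, were lower in 8 of 20 members and higher in 2, with 4 lower without Trex1 WT/FL replicate 1 or without Trex1 FL/FL replicate 1. Nqo1, a quinone reductase, stood at 5.91 and 5.83 CPM against 11.5 and 10.2 CPM (-0.89 ± 0.20, adjusted p = 0.00201). Hmox1, heme oxygenase, stood at 276 and 285 CPM against 416 and 378 CPM (-0.50 ± 0.077, adjusted p = 2.54e-05). The raised members were Sqstm1, the autophagy receptor p62, at 1035 and 1009.5 CPM against 695 and 689.6 CPM (0.56 ± 0.087, adjusted p = 4.27e-05) and Gpx1, a glutathione peroxidase (0.39). Of 19 iron and heme genes, 6 were lower and 3 higher, with Tfrc, the transferrin receptor, at 183 and 171 CPM against 342 and 271 CPM (-0.80 ± 0.091, adjusted p = 8.12e-07) and Trf, transferrin, at 219 and 265 CPM against 623 and 547 CPM (-1.27 ± 0.10, adjusted p = 1.97e-09). Steap3, an endosomal iron reductase, and Fth1, ferritin heavy chain, were higher (0.55 and 0.34). Lysosome genes were raised by small amounts in 15 of 34 members and lowered in 2. Gla, α-galactosidase, led with 285 and 271 CPM against 162 and 164 CPM (0.77 ± 0.06, adjusted p = 3.94e-10), and Ctsd, cathepsin D, one of the most abundant mRNAs of these cells, stood at 12480 and 12428 CPM against 8469 and 9525 CPM (0.47 ± 0.058, adjusted p = 1.07e-06). Scarb2, a lysosomal membrane protein, and Atp6v0a1, of the proton pump, were lower (-0.29, adjusted p up to 0.0813 with 1 library left out and -0.25).

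Nucleotide synthesis genes had a median of -0.00041, 6 of 28 lower and 2 higher, with 2 to 4 lower when 1 library was left out. Dck, the deoxycytidine kinase of the salvage pathway, stood at 322 and 324 CPM against 157 and 181 CPM (0.94 ± 0.086, adjusted p = 1.57e-08), and Adsl, of purine synthesis, rose by 0.24, adjusted p up to 0.264 with 1 library left out. Tk1, the thymidine kinase of dividing cells, stood at 3.48 and 1.97 CPM against 5.71 and 3.04 CPM (-0.78 ± 0.24, adjusted p = 0.0261, and 0.453 to 0.594 without FL/FL replicate 2 or WT/FL replicate 1) with overlapping groups, and Shmt1 at 1.14 and 0.855 CPM against 1.58 and 1.65 CPM (-0.72 ± 0.21, adjusted p = 0.0168, and 0.0633 to 0.268 without FL/FL replicate 2, WT/FL replicate 1 or WT/FL replicate 2). Of 36 cell cycle genes, 7 were lower and 3 higher, but 2 were lower without Trex1 WT/FL replicate 1 or without Trex1 FL/FL replicate 2. Ccnd2, cyclin D2, was the 1 called, at 10.8 and 12.7 CPM against 3.81 and 3.44 CPM (1.70 ± 0.18, adjusted p = 1.32e-07). Cdt1, a replication licensing factor, rose by 0.35, adjusted p up to 0.290 with 1 library left out. Cdc6 and Uhrf1, also of S phase, were lower (-0.52, adjusted p up to 0.306 with 1 library left out and -0.47, adjusted p up to 0.636 with 1 library left out). Mki67, a marker of dividing cells, changed by -0.22 ± 0.094 and did not pass the test (adjusted p = 0.114). Among 24 targets of p53, 9 were higher and 2 lower, with 5 higher without Trex1 WT/FL replicate 1 and 6 without Trex1 FL/FL replicate 1. The largest increase was that of Gdf15, a stress cytokine that ATF4 also induces, at 29.9 and 26.8 CPM against 12.9 and 13.6 CPM (1.09 ± 0.14, adjusted p = 3.8e-06). Aen, a nuclease, stood at 27.3 and 24.7 CPM against 14.7 and 15.8 CPM (0.76 ± 0.10, adjusted p = 4.37e-06) and Cdkn1a, the cell cycle inhibitor p21, at 523 and 503 CPM against 344 and 340.0 CPM (0.58 ± 0.057, adjusted p = 2.41e-08). Sesn1, a sestrin, was lower at 233 and 241 CPM against 362 and 358 CPM (-0.60 ± 0.066, adjusted p = 1.48e-07), and so was the death receptor Fas (-0.38, adjusted p up to 0.314 with 1 library left out).

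Several of the largest increases belonged to no list. Slfn4, of the Schlafen family that interferon induces in myeloid cells, led at 69.0 and 58.0 CPM against 3.88 and 6.72 CPM (3.59 ± 0.38, adjusted p = 2.3e-06). Apol9a, an interferon-induced apolipoprotein L gene, stood at 11.7 and 10.7 CPM against 0.857 and 1.25 CPM (3.41 ± 0.39, adjusted p = 5.07e-07). Its copy Apol9b stood at 53.4 and 40.0 CPM against 4.26 and 6.48 CPM (3.12 ± 0.37, adjusted p = 9.63e-06), and 63.8% of its 31-base words also occur in Apol9a, so the 2 values are uncertain. Pou3f1, a POU factor, stood at 14.0 and 10.7 CPM against 1.39 and 1.43 CPM (3.13 ± 0.44, adjusted p = 2.13e-05). Igfbp6, which binds IGF-2, was called at 1.43 and 0.940 CPM against 0.152 and 0.0670 CPM (adjusted p = 0.00866, and 0.0646 to 0.108 without FL/FL replicate 1 or WT/FL replicate 2). Pcsk1, a prohormone convertase, was called at 11 and 38 counts against 2 and 3 counts (adjusted p = 0.00615, and 0.0894 to 0.0899 without FL/FL replicate 2 or WT/FL replicate 1), and Slc6a19, an amino acid carrier of epithelia, at 11 and 12 counts against 0 and 3 counts (adjusted p = 0.00425, and 0.104 without WT/FL replicate 1). These 3 rest on few reads.

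The genotype effect of day 3 was set against the mean of days 2 and 4 for every gene. At an adjusted p below 0.01 and a difference above 1.5, 40 genes were more positive on day 3 (0.262%) and 4 more negative (0.0262%). Of the 36 cell cycle genes, 13 were more positive and 3 more negative at an adjusted p below 0.05, and the list's median change was close to 0 for days 2 and 3 (-0.10 and -0.015) but -0.76 for day 4. The 4 more negative genes were Fosb, Cxcl10, Ifit1bl1 and Tnfsf10, the last named because the count is small. Tnfsf10, the death ligand TRAIL, changed by 2.11 on day 2, 0.74 on day 3 and 2.62 on day 4. Without Trex1 WT/FL replicate 1 its day 3 change was 0.64. Cxcl10 changed by 2.52, 1.34 and 3.65. In both genes the difference between genotypes was thus smaller on day 3 than on day 2 or day 4. Cxcl3, a neutrophil attractant, did the opposite, at -1.14, 1.77, adjusted p up to 0.253 with 1 library left out and -1.78 from low levels.

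**Figure D5:**
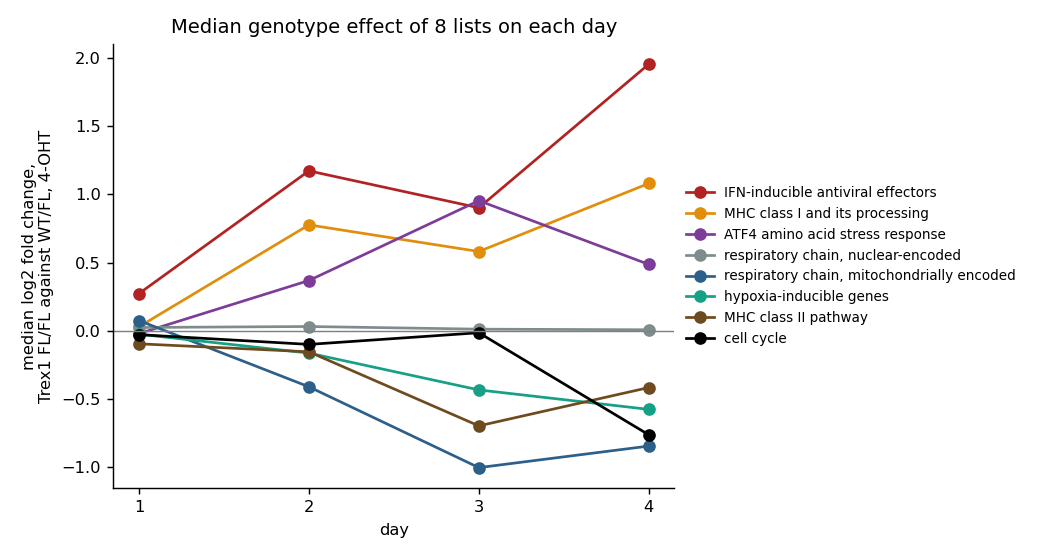
Median log2 fold change (y axis) of 8 gene lists on days 1 to 4 (x axis), 4-OHT-treated Trex1 FL/FL against Trex1 WT/FL cells. The ATF4 list peaks on day 3 at 0.95, the interferon and class I lists dip there, and the cell cycle list stays near 0 until day 4, where it is at -0.76.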

How the data were processed

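Of 32 bulk RNA-seq libraries, 4 make up the comparison described here, and all 32 entered the model fit. The authors checked reads with FastQC 11.9, quantified transcripts with Salmon against GRCm39, summed them to genes and deposited estimated counts per gene, which are whole numbers; DESeq2 1.32 is named in the submitters' processing notes. GENCODE vM39 gave names to 51048 of the 54281 identifiers, and the rest held 0.320% of all counts. The annotation release used upstream is not given in the sources used here.

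Genes were kept by edgeR's filterByExpr with a minimum count of 10, scaled by TMM factors, and tested with edgeR 4.0.16 (glmQLFit with robust estimation, glmQLFTest; R 4.3.3, limma 3.58.1) with 1 mean for each of 16 groups of genotype, treatment and day, so that 16 residual degrees of freedom were shared by all groups. Adjusted p-values are those of Benjamini and Hochberg over the 15257 genes tested. The thresholds were an adjusted p of 0.01 with an absolute log2 fold change of 1.5, and an adjusted p of 0.05 at any fold. Replicates of a group differed by more than counting error (chi-square per degree of freedom 10.1 and 19.5 in the 2 groups). On simulated counts for 14741 genes with a true log2 change of 2.5 in size, 200 of 200 changed genes were recovered with 1 false call. The changed genes were drawn from well-expressed genes only, and the libraries were simulated as independent. The simulation thus does not cover weakly expressed genes, smaller changes or libraries that share a mouse.

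The comparison, the gene lists and the tests were chosen with earlier results of these data known. Lists were described by counts and medians, with no list test. Named genes were Trex1, the 10 largest called increases and decreases among protein-coding genes without overlap, called list members, up to 2 members per list and direction at an adjusted p below 0.05, and a fixed set of metabolic and interferon genes; a few genes that these rules name are not reported here. Neighbours of Trex1, Adgre1, Ctsk, Aars1, Ak4, Ass1, Atf4, Atf5, Cars1, Cd74, Ciita, Clec10a, Cox6a2, Cx3cr1, Fzd1, H2-Aa, Hif1a, Hk1, Idh2, Irf4, Mrc1, Mthfd2, Nars1, Psat1, Psph, Slc1a4, Slc3a2, Slc7a11, Slco2b1, Stab1, Tnfsf10, mt-Co1, mt-Cytb and mt-Nd1 were named after their values were seen. Shared sequence was counted as the percent of a gene's 31-base transcript words that occur in any other annotated gene. Alternatives changed the scaling, the filter, the libraries in the fit, the control, the tool (DESeq2 1.42.0, limma-voom) and the thresholds, and added blocks of consecutive library names.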

Additional observations from a re-analysis of the deposited data

Results flagged for a closer look

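By the test of that difference, 44 genes had a genotype effect on day 3 that differed from the mean of days 2 and 4. Of the genes named by the rule, these were the 4 genes Cxcl10, Ifit1bl1, Fosb and Cxcl3. Cxcl10, a chemokine for T cells, was less raised on day 3 (difference -1.74, adjusted p = 0.00252), with 269 and 225 CPM against 84.1 and 111 CPM. Ifit1bl1 was less raised as well (difference -1.66, adjusted p = 0.000926). The genotype effect on Fosb was more negative on day 3 than the mean of the other days (difference -2.67, adjusted p = 0.00549). That on Cxcl3 was more positive (difference 3.23, adjusted p = 0.00603), with 2.66 and 2.51 CPM against 0.438 and 1.09 CPM on day 3. Each difference sets libraries of 3 days against each other, and any difference between cultures of these days cannot be told apart from the day.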

How the results depend on the processing

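The 74 genes called higher and 59 called lower kept their sign wherever they could be tested. With RLE or upper-quartile factors, a minimum of 1 CPM, the 16 4-OHT libraries, the 8 libraries of day 3 or DESeq2, 67 to 83 genes were called higher and 46 to 59 lower, and under the same settings other than the 8 libraries of day 3, which cannot give it, 40 to 53 genes differed between day 3 and days 2 and 4 beside 44 as reported. Without a filter on low counts 96 were lower and 101 differed between days. Fitting the 4 libraries of the comparison alone gave 36 lower, and subtracting untreated cells gave 28 lower. With the untreated Trex1 FL/FL libraries of day 3 taken as controls, 150 were higher and 105 lower. Testing for a change beyond 1.5 within the model left 6 higher and 2 lower, the latter being Trex1 and Shisa5. An adjusted p of 0.05 with the same fold gave 96 lower, and an adjusted p of 0.01 with an absolute log2 fold change above 1 gave 181 higher and 139 lower. With 1 of the 4 libraries left out, 51 to 86 were higher, 28 to 55 lower and 33 to 64 differed between days, with the lone library of a group taken to vary like the other groups; the 28 came without Trex1 WT/FL replicate 1, which shared 26 of the 59 calls, and the cause was not tested. Of 163 genes named by the rule, 45 lost the wider call with untreated cells subtracted, 40 lost the wider call without Trex1 WT/FL replicate 1, 19 without its replicate 2, and 28 and 29 without Trex1 FL/FL replicates 1 and 2, and none reversed. Scaling moved the median of all genes by less than 0.1. The labels give no replicate number, animal or batch, but library names run in 2 sets of 8 within each genotype, so a replicate block of these sets was tried after the data were seen. Deviations from the group mean correlated over genes by -0.0078 to 0.14 (median 0.067) between groups of 1 genotype, above 0.1 in 10 of 56 pairs. Between genotypes the median was 0.029, with 0 of 64 pairs above 0.1. Whether libraries of a set share a mouse or culture was not tested, and the main fit does not pair them. With the replicate block 52 genes differed between days, and subtracting untreated cells gave 66 higher and 36 lower. limma-voom called 87 higher and 45 lower without the replicate block and 88 and 46 with the sets as a random effect. Depth limits the called genes below 1 CPM in both genotypes, 20 lower and 7 higher, and 16 residual degrees of freedom are too many if libraries share a mouse.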
